A study of Mus musculus with 25 samples.

Results

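The contacts described here were KLF4 contacts found early in reprogramming and missing from the embryonic stem (ES) cell list. They are pairs of 10 kb bins that stood, with the same bins at both ends, in the KLF4 lists of day 3 and of day 6 and not in the KLF4 list of ES cells. There were 1092 such pairs among 493983 distinct bin pairs in the 9 deposited lists. The members were chosen by presence in the deposited KLF4 lists, which the authors filtered on KLF4 p-value and strength. A pair missing from a list can still have contacts under its filters, so "lost" here means no longer listed. For comparison, 1499 pairs stood in all 3 KLF4 lists and 15241 stood in the day 3 KLF4 list alone.

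KLF4 is a zinc finger transcription factor and one of the reprogramming factors. In fibroblasts given these factors it binds many enhancers and promoters, and in naive ES cells it helps to maintain the pluripotency program. H3K27ac, acetylation of histone H3 at lysine 27, marks active enhancers and promoters, and contacts between marked regions are commonly read as enhancer and promoter contacts.

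HiChIP ligates neighbouring pieces of fixed chromatin and pulls down those bound by an antibody, while Hi-C uses the ligation alone. The mouse embryonic fibroblasts (MEFs) were taken from rtTA3-OKSM embryos of embryonic day E13.5. They carried 1 copy each of an Oct4-GFP reporter, the doxycycline-inducible OKSM cassette (Oct4, Klf4, Sox2 and Myc) and the rtTA3 activator. KLF4 HiChIP was made after 3 days (3 libraries) and 6 days (4 libraries) of doxycycline (dox) with ascorbic acid. Per the series' design text, day 3 cells were the bulk population and day 6 cells were sorted for SSEA1, so the day and the sort cannot be told apart. V6.5 ES cells in 2i medium gave 4 KLF4 libraries. H3K27ac HiChIP was made in MEFs at passage 3 and in V6.5 ES cells in 2i, with 2 libraries each. It was also made in V6.5 cells in 2i labelled TKO, a term the labels do not spell out, without dox and after 24 hours of dox, with 3 libraries each. Hi-C was made in MEFs and V6.5 ES cells, with 2 libraries each. The labels do not say which libraries came from separate animals or cultures, so p-values measure the spread between these libraries, which may be technical. The lists measure contacts and not RNA, so the labelled cell types were not checked against expressed markers.

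HiChIP libraries held from 48664847 to 180568707 contacts. A member had a median of 17, 43 and 50 contacts in day 3 replicates 1, 2 and 3. It had a median of 11, 20, 17 and 24 contacts in day 6 replicates 1 to 4. The 4 day 6 libraries differed from each other by no more than counting noise, and each was kept as a library. In the ES KLF4 group, libraries 1 and 2, and likewise 3 and 4, also differed by no more than counting noise. Libraries 1 and 2 each differed from 3 and from 4 by more than that, with a chi-square per degree of freedom of 1.25 to 1.48. All pairs of day 3 libraries also differed by more than counting noise, at 1.06 to 1.09. The strength filter of the ES KLF4 list, which the rule used, held in libraries 1 and 2 only. The ES KLF4 libraries entered no test, and where values of a single pair are given each library is given by itself. The ES median given for pairs in all 3 KLF4 lists is over the means of the 4 libraries.

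Most members lay within or between gene bodies rather than at gene starts. A gene start from the RefSeq promoter table (GRCm38.p6, the assembly also called mm10) lay in 311 of the 1844 anchor bins of the members (16.9%). The share was 29.8% of the anchor bins of pairs in all 3 KLF4 lists and 20.1% of those of pairs listed at day 3 alone. No anchor of a member held a listed start for 763 of the 1092 pairs, and 1295 anchor bins (70.2%) overlapped a protein-coding gene.

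The promoters below are shown because they belong to 3 genes of the fixed lists whose starts lay in member anchors, and because no other annotated gene body covers them. They are the 250 bases before the RefSeq start, 5′ to 3′ on the gene's strand, and capitals mark matches to the KLF4 motif GGGNGTGG or the AP-1 motif TGANTCA on either strand. Tgfbr2, the type II receptor for TGF-beta, starts on the minus strand and its window is chr9:116175364-116175613. Col6a1, a chain of collagen VI, starts on the minus strand with the window chr10:76726045-76726294. Klf9, a relative of KLF4, starts on the plus strand with the window chr19:23140976-23141225.
Tgfbr2: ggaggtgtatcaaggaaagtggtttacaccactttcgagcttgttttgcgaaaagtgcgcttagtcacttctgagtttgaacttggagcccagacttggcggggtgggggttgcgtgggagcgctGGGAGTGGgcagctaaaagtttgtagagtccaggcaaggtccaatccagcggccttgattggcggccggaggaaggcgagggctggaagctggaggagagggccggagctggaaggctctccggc
Col6a1: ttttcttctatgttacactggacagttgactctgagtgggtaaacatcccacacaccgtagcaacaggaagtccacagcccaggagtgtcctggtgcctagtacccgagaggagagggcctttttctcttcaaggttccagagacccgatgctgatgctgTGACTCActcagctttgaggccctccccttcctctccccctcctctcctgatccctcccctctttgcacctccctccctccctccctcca
Klf9: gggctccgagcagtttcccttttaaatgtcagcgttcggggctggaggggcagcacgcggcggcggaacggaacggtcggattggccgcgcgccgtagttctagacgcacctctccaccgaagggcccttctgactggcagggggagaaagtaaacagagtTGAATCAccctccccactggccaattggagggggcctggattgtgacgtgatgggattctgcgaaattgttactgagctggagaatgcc
The Tgfbr2 window held 1 match to the KLF4 motif, and the Col6a1 and Klf9 windows held 1 match each to the AP-1 motif. Over windows of 300 bases, including the 50 bases after the start, the KLF4 motif was in 24.7% of 425 promoters at member anchors, in 26.3% of 1075 promoters at anchors of pairs in all 3 lists, and in 17.6% of all 32851 promoters of the table. The AP-1 motif was in 5.65% of promoters at member anchors, 4.84% at anchors of pairs in all 3 lists and 7.81% of all promoters. In the windows shown no match of one motif overlapped a match of the other, and a match describes the letters only.

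Members were found more often in the MEF than in the ES H3K27ac list. Of the 1092 members, 539 (49.4%, 95% Wilson interval 46.4 to 52.3%) were also in the MEF H3K27ac list and 378 (34.6%, 31.9 to 37.5%) were in the ES H3K27ac list. Pairs in all 3 KLF4 lists had the opposite order, with 69.6% in the MEF list and 84.5% in the ES list. Pairs of day 3 alone stood at 38.5% and 28.9%. Intervals cover counting error only, since pairs share anchors and ligation products were amplified. These shares describe lists of unlike length, 60870 pairs in MEFs and 75466 in ES cells, and were not tested. The ES H3K27ac list comes from the same cells as the KLF4 list that the rule used.

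The H3K27ac lists of the TKO cells gave shares close to those of ES cells. They held 402 members (36.8%) without dox and 408 (37.4%) after 24 hours of dox, against 82.1% and 79.3% of the pairs in all 3 KLF4 lists. In all, 244 members (22.3%) were in the MEF H3K27ac list and in none of the 3 H3K27ac lists from ES and TKO cells. That pattern held for 4.60% of pairs in all 3 KLF4 lists and for 19.3% of pairs of day 3 alone.

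**Figure D1:**
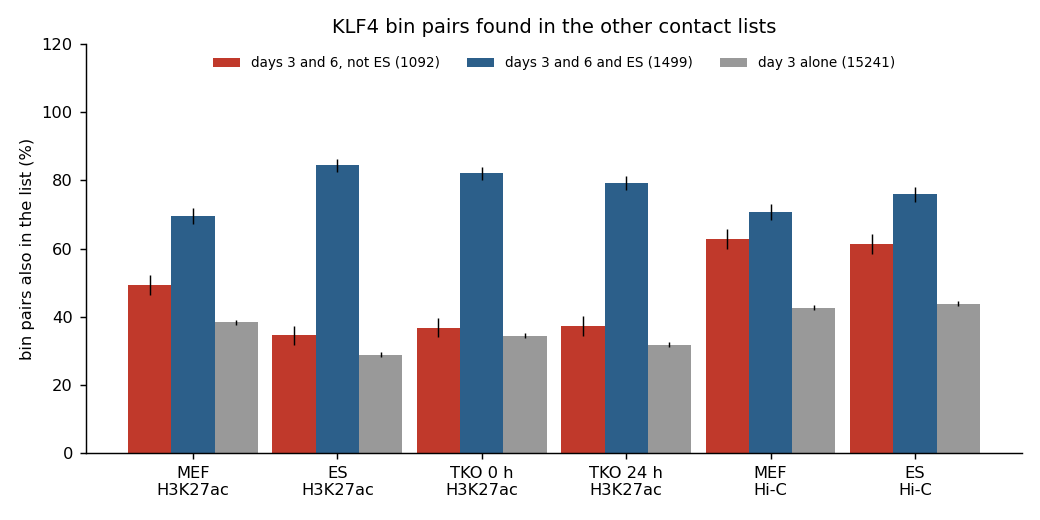
Percent of KLF4 bin pairs (y axis) that were also in each of 6 other lists (x axis), for pairs of days 3 and 6 missing in ES cells, pairs in all 3 KLF4 lists and pairs of day 3 alone; bars are shares and lines 95% Wilson intervals. The pairs missing in ES cells stand at 49.4% in the MEF and 34.6% in the ES H3K27ac list, while pairs of all 3 lists stand at 69.6% and 84.5%.

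By their H3K27ac record the members fell into 4 classes. The MEF list alone held 314 members (28.8%), the ES list alone 153 (14.0%), both lists 225 (20.6%) and neither list 400 (36.6%). Among pairs in all 3 KLF4 lists the same classes held 7.14%, 21.9%, 62.5% and 8.41%. Their day 3 medians were 7.35, 6.54, 7.42 and 6.50 CPM in the order given, where CPM is the deposited contact count scaled to the contacts of the same chromosome. A gene start lay at an anchor of 28.0% of the MEF-only members, 30.1% of the ES-only members, 42.2% of those in both lists and 100 of the 400 in neither.

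Many members kept an anchor in the ES KLF4 list through other partners. Of the 1844 anchor bins, 765 (41.5%) took part in some other KLF4 contact listed in ES cells. Neither anchor did so in 468 members (42.9%), 1 anchor in 330 (30.2%) and both anchors in 294 (26.9%). Pairs of day 3 alone had 34.8% of their anchor bins in the ES KLF4 list. In the same order, their shares were 45.85%, 32.7% and 21.5%. An ES KLF4 pair with each end within 1 bin of the member existed for 350 members (32.1%). Such a neighbour existed for 19.7% of MEF-only members, 48.4% of ES-only members, 55.6% of members in both H3K27ac lists and 22.2% of those in neither.

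The ES H3K27ac share followed the number of anchors still used in ES cells. It was 14.1% (11.2 to 17.5%) for the 468 members with no such anchor, 41.2% (36.0 to 46.6%) with 1 and 59.9% (54.2 to 65.3%) with 2. The MEF H3K27ac share moved less, at 44.7%, 50.6% and 55.4% in the same order. Both measures come from ES cells in 2i, and the relation was not tested.

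Hi-C, which needs no antibody, listed similar shares of members in both cell types. The lists were of unlike length, 228083 pairs in MEFs and 318622 in ES cells. The MEF Hi-C list held 686 members (62.8%) and the ES Hi-C list held 670 (61.4%). Pairs in all 3 KLF4 lists stood at 70.8% and 75.9%, and pairs of day 3 alone at 42.7% and 43.9%. Both Hi-C lists held 520 members, MEFs alone 166, ES cells alone 150 and neither 256. For members with no anchor in the ES KLF4 list the Hi-C shares were 62.4% in MEFs and 55.1% in ES cells. In 95.8% of members both anchors lay within 1 of the authors' MEF domains, and in 97.1% within 1 ES domain.

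Members were short contacts. The median distance between anchors was 20 kb and the longest 360 kb. Adjacent bins made up 488 members (44.7%), and 113 (10.3%) spanned 50 kb or more, against 7.61% of pairs in all 3 lists and 24.99% of pairs of day 3 alone. The longest joined a bin in Enpp6, a phosphodiesterase gene, to a bin in Stox2 on chromosome 8 (bins starting at 47010001 and 47370001). Its values were 5.28, 5.67 and 4.51 CPM at day 3 and 4.11, 3.22, 3.82 and 3.41 CPM at day 6, and it was in no H3K27ac list. The next joined a bin in Ttc7 to a bin 250 kb away on chromosome 17 and was in both the MEF and the ES H3K27ac lists.

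Chromosome 19 held 174 members (15.9%), chromosome 17 held 130, chromosome 7 held 100 and chromosome 18 held 84. Chromosome 19 also held 15.5% of the pairs in all 3 KLF4 lists. The deposited CPM is scaled to each chromosome, so the lists' floor of 3 CPM stood at 3.30 to 6.74 contacts on chromosome 19 in day 6 replicates 1 and 2, and at 12.3 to 25.2 contacts on chromosome 1. The part of this floor in the chromosome counts was not tested.

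Anchors were mostly used once. Of the 1844 anchor bins, 1594 (86.4%) belonged to 1 member and 64 belonged to 3 or more. Members whose spans touched or overlapped formed 726 stretches, of which 524 held a single member and 19 held 5 or more.

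The stretch with the most members covered the start of Gnaq, the G protein subunit alpha q, at chr19:16060001-16260000, with 15 members. Of these, 3 were in the MEF and 3 in the ES H3K27ac list. A bin just before the gene, chr19:16120001-16130000, had 6 members, and a bin inside it, chr19:16210001-16220000, had 5. The strongest of the first bin's members had 16.4, 13.51 and 12.3 CPM at day 3 and 8.18, 10.2, 7.94 and 8.58 CPM at day 6. None of its 6 members was in the MEF or the ES H3K27ac list. KLF4 pairs of that bin numbered 15 at day 3, 9 at day 6 and 1 in ES cells.

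A stretch at Dusp1 and Ergic1, chr17:26460001-26640000, held 9 members. Dusp1 encodes a phosphatase that switches off MAP kinases and is quickly induced by growth signals, and Ergic1 encodes a protein of the early secretory pathway. Of the 9, 8 were in the MEF and 5 in the ES H3K27ac list. KLF4 pairs within the stretch numbered 45 at day 3, 19 at day 6 and 28 in ES cells, so KLF4 contacts between other bins of the stretch were listed in ES cells. Pacs1, a sorting protein gene on chromosome 19, had a bin with 5 members (chr19:5170001-5180000). That bin had 12 KLF4 pairs at day 3, 5 at day 6 and 0 in ES cells, and 11 H3K27ac pairs in MEFs and 1 in ES cells.

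Genes of fixed lists for fibroblasts, mesenchymal factors, AP-1, the cytoskeleton, epithelium, pluripotency, the KLF family and cell cycle arrest met 17 members through a start or a body. Of these 17, 14 were in the MEF H3K27ac list, 8 of them without the ES list, 6 were in both and 3 in neither. Among all 1092 members, 49.4% were in the MEF list, 28.8% in it without the ES list, 20.6% in both and 36.6% in neither. Fibroblast and matrix genes with a start at a member anchor were Col6a1, Acta2 and Tgfbr2, out of 19 with a start in the table. Col6a2 was met through its body. Of all 27025 genes with a start in the table, 350 (1.30%) had it at a member anchor, and the bodies of 1000 of 49993 genes (2.00%) met one. No body of the 23 pluripotency genes met a member anchor, a count near that background. Anchors of pairs in all 3 KLF4 lists met the bodies of 1715 of the 49993 genes (3.43%), a higher background than that of members. They met 1 gene of the pluripotency list and 9 of the 26 of the cytoskeleton, against 5 at member anchors. They met 6 of the 23 of epithelium, against 1, and 1 of the 27 of fibroblasts and matrix, against 4. Mesenchymal factors gave 3 of 17, against 1, and AP-1 gave 2 of 11, against 1. The KLF family gave 2 of 22, against 1, and cell cycle arrest 2 of 16, against 1. These counts were not tested.

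Acta2, which encodes smooth muscle actin and is induced in myofibroblasts, was joined to Fas, a death receptor gene, by bins starting at 34250001 and 34290001 on chromosome 19. Their starts lay in the 2 bins of that member. Its strength was 14.0, 14.4 and 12.1 CPM at day 3 (13.51 ± 1.26, SD, n = 3) and 3.64, 5.34, 5.67 and 6.86 CPM at day 6 (5.38 ± 1.33, SD, n = 4), from 4 to 20 contacts per library at day 6. It had 12.9 and 8.69 CPM in MEF H3K27ac and was not in the ES, TKO without dox or TKO with dox H3K27ac lists. Every day 3 library stood above every day 6 library, in values that the lists' floors also used. Of all 1092 members, 1058 were lower at day 6. The edgeR fit of day 6 against day 3, described below, called 0 of the 17 members at fixed-list genes, beside 5.33% of all pairs tested.

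Tgfbr2 had a pair of members on either side of the bin holding its start. The member inside the gene had 6.99, 6.50 and 7.14 CPM at day 3, 6.75, 4.68, 5.45 and 3.01 CPM at day 6, and 10.1 and 7.15 CPM in MEF H3K27ac. The member leading upstream had 5.52, 6.79 and 6.37 CPM at day 3 and 8.34, 3.70, 4.70 and 4.06 CPM at day 6, and it was in no H3K27ac list. The day 3 and day 6 libraries overlapped in both. The promoter of Tgfbr2 shown above lies in the bin that these members share.

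The Col6a1 member reached from the bin holding the gene's 3′ part and beyond (76700001) to the bin holding the start region (76720001). It had 4.65, 4.58 and 3.44 CPM at day 3 and 4.63, 3.95, 2.87 and 3.47 CPM at day 6, with overlapping groups, and 6.73 and 9.72 CPM in MEF H3K27ac. Col6a2, the neighbouring collagen VI gene, had a member within its body at 4.65, 6.47 and 4.65 CPM at day 3 and 4.25, 5.65, 5.27 and 4.34 CPM at day 6. It was in no H3K27ac list.

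Runx1, a transcription factor of mesenchymal and blood cells, had 3 members within its body. The one near its upstream end, bins starting at 92760001 and 92770001 on chromosome 16, had 9.03, 10.9 and 7.44 CPM at day 3, 5.88, 6.24, 7.60 and 6.20 CPM at day 6, and 9.59 and 9.72 CPM in MEF H3K27ac. The 40 kb member had 3.64 and 5.92 CPM in MEF and 3.71 and 3.53 CPM in ES H3K27ac. Klf9 was joined to a bin in Trpm3, a cation channel gene, 200 kb away. That contact had 4.68, 4.30 and 4.73 CPM at day 3, 4.55, 3.12, 1.70 and 3.43 CPM at day 6, and 7.30 and 5.13 CPM in MEF H3K27ac, and it was in no ES or TKO H3K27ac list. The other listed genes were Fosl1 of the AP-1 family, Actn4, Myh9, Tpm1, Ahnak and Plec of the cytoskeleton, Tjp1 of epithelial tight junctions, and Rb1, which restrains cell cycle entry. The bodies of Myh9, Tpm1, Ahnak and Tjp1 also met anchors of pairs in all 3 KLF4 lists. The Rb1 member had 10.5, 9.80 and 6.71 CPM at day 3 and 4.59, 5.81, 5.39 and 3.77 CPM at day 6, and was in the TKO but not in the MEF or ES H3K27ac lists.

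**Figure D2:**
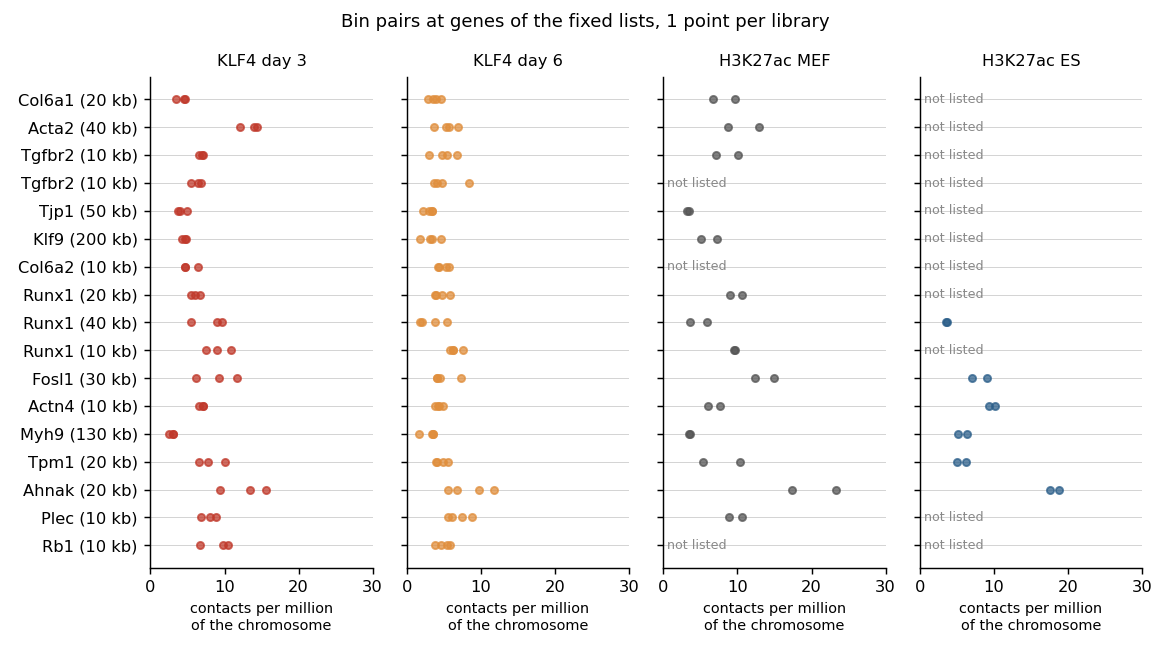
KLF4 and H3K27ac strength of the 17 members at fixed-list genes: x axis, CPM; rows, members named by gene with the distance between anchors; each point is 1 library. ES H3K27ac values exist for 6 of the 17 and MEF H3K27ac values for 14.

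On a scale of the whole library, the MEF-only members with the most H3K27ac signal lay in the noncoding gene Gm28888, at Lncpint, a long noncoding RNA linked to p53, in Ldlrad4, an inhibitor of TGF-beta signalling, and, with 2 members, in Dcaf5, a ubiquitin ligase adaptor. The Gm28888 member and the Dcaf5 member of bins starting at 80340001 and 80350001 were also in both TKO H3K27ac lists. The Lncpint, Ldlrad4 and other Dcaf5 members were in neither TKO list. The Ldlrad4 member had 20.1 and 27.05 CPM in MEF H3K27ac, 14.4, 11.7 and 11.2 CPM in KLF4 at day 3 and 5.77, 3.65, 8.91 and 5.84 CPM at day 6. On the same scale, the ES-only members with the most H3K27ac signal lay in Sfi1, a centrosome protein gene, Dgcr8, a subunit of the microRNA processor, Brd8, a bromodomain protein gene, Ddx17, an RNA helicase gene, and Carm1, an arginine methyltransferase gene. The Dgcr8 member had 28.7 and 29.5 CPM in ES H3K27ac, 18.1, 11.5 and 11.7 CPM in KLF4 at day 3 and 10.7, 7.81, 9.58 and 5.80 CPM at day 6. All 5 ES-only members named here had an ES KLF4 pair within 1 bin, and none of the 5 MEF-only members did.

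Members present in both H3K27ac lists could be tested between MEFs and ES cells, a measure the rule did not use. Of the 225 tested, 78 passed edgeR's test at an adjusted p under 0.05, beside 32% of all 17901 pairs in both lists. In ES cells 58 members were lower (25.8%, beside 14.4% of all pairs) and 20 were higher (8.89%, beside 17.6%). The split depends on the scaling. With library contact totals in place of TMM factors, 32 members were lower and 43 higher, and the same scaling moved the median of all pairs from −0.04 to 0.21 on the log2 scale. Relative to the median of all pairs, the median member stood at −0.18 and the median pair of all 3 KLF4 lists at 0.14, under both scalings. Pairs listed in only 1 cell type have no value in the other and stayed out of this test.

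Among the members lower in ES cells, the largest change was in Ptk7, a receptor of the Wnt and planar polarity pathways. Its member on chromosome 17 (bins starting at 46590001 and 46600001) had 32.4 and 36.0 CPM in MEF and 9.91 and 9.72 CPM in ES H3K27ac (log2 change −1.94 ± 0.16 SE, edgeR adjusted p = 4.96e-14). At Tsku, a secreted matrix proteoglycan gene on chromosome 7, H3K27ac fell from 11.3 and 14.7 CPM to 3.43 and 5.14 CPM (log2 change −1.73 ± 0.21 SE, edgeR adjusted p = 2.42e-09). At Plekho2 on chromosome 9 it fell from 15.9 and 16.9 CPM to 5.77 and 5.45 CPM (log2 change −1.72 ± 0.19 SE, edgeR adjusted p = 9.73e-11). The other 2 of the 5 largest falls lay in Ergic1 and Ankrd66. In the Dusp1 and Ergic1 stretch 4 of 5 tested members were lower in ES cells. Of the 6 tested members at fixed-list genes, those at Fosl1, Tpm1 and Runx1 passed edgeR's test as lower in ES cells, with log2 changes of −0.94, −0.72 and −0.82 and edgeR adjusted p-values of 0.00196, 0.0123 and 0.0405. The Fosl1 and Tpm1 calls did not hold with DESeq2 (adjusted p = 0.0960 and 0.229), which gave no adjusted p at Runx1. None of the 3 held without MEF replicate 2 (edgeR adjusted p = 0.112, 0.846 and 0.627). With contact totals as scaling the Fosl1 call alone held. The CPM values of MEF and ES libraries overlapped at Tpm1 and Runx1 and did not at Fosl1. At Fosl1 the other anchor held the starts of AI837181 and Drap1.

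Members higher in ES cells included Matr3, a nuclear matrix protein gene on chromosome 18. It had 10.05 and 15.8 CPM in MEF and 34.2 and 35.2 CPM in ES H3K27ac (log2 change 1.05 ± 0.17 SE, edgeR adjusted p = 1.24e-06). This member was also among the 10 strongest in KLF4, with 30.8, 23.3 and 21.6 CPM at day 3 and 5.77, 7.30, 10.3 and 11.5 CPM at day 6, and an ES KLF4 pair lay within 1 bin of it. The largest rise joined the starts of Bscl2 and Gng3 to the start of Ganab on chromosome 19, from 8.42 and 6.71 CPM to 18.6 and 17.1 CPM (log2 change 1.11 ± 0.26 SE, edgeR adjusted p = 0.000521). Without MEF replicate 2 this call did not hold (log2 change 0.88, edgeR adjusted p = 0.0743). A further 3 of the 5 largest rises lay between Ik and the histidyl-tRNA synthetase genes Hars and Hars2, and at places on chromosomes 9 and 13 with no gene start. The call on chromosome 9 did not hold without MEF replicate 2, and those at Ik and on chromosome 13 did not hold with DESeq2.

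**Figure D3:**
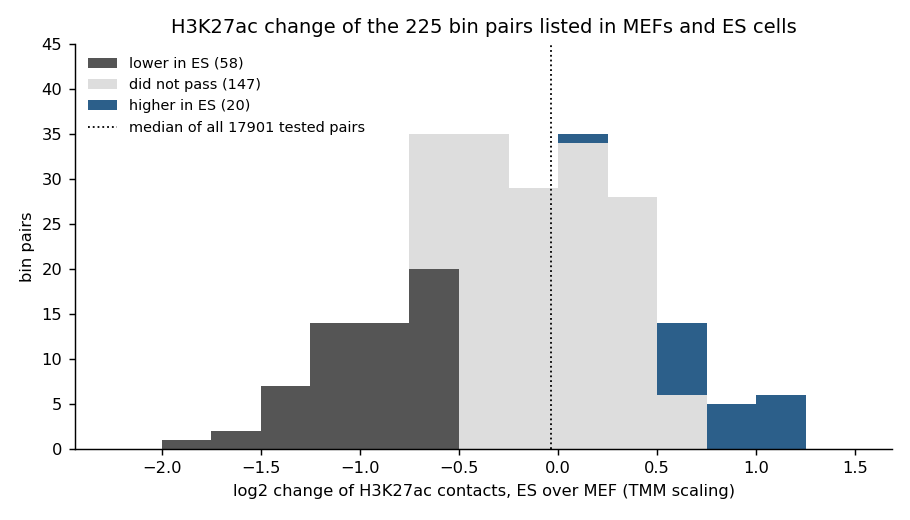
Log2 change of H3K27ac contacts, ES cells over MEFs with TMM scaling (x axis), for the 225 members listed in both cell types (y axis, number of bin pairs); the dotted line is the median of all 17901 tested pairs. Members lower in ES cells number 58 and higher 20; with contact totals as scaling they number 32 and 43.

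KLF4 strength in the members was lower at day 6 than at day 3, as it was in all pairs listed on both days. The median member had 6.94 CPM at day 3 and 4.68 CPM at day 6. The median log2 ratio of day 6 over day 3 was −0.52, with −0.76 to −0.29 over the 12 pairs of libraries, and 1058 of 1092 members were lower at day 6. Pairs in all 3 KLF4 lists had 7.61 and 4.92 CPM, with a median log2 ratio of −0.60, and 7.33 CPM in ES cells. Listing on both days used these values, and the lists' floors cut off what fell further, so the ratio is a description.

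**Figure D4:**
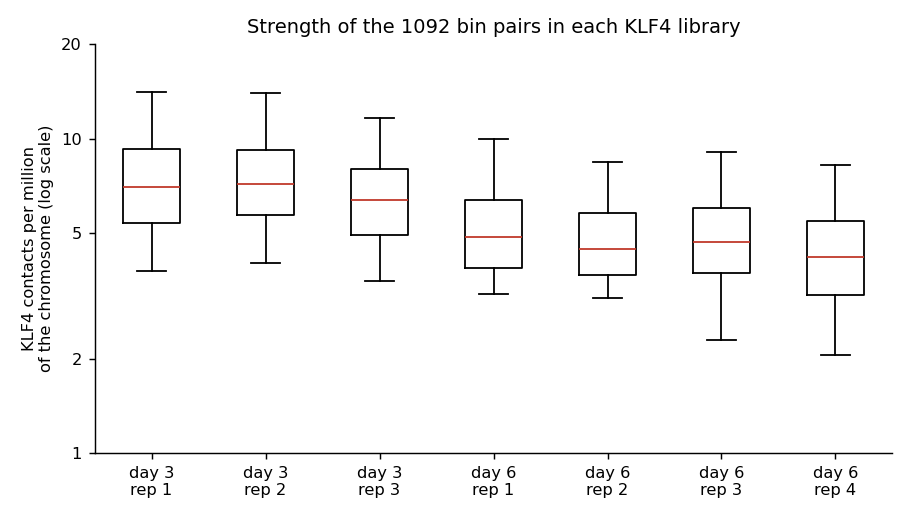
KLF4 strength in CPM (y axis, log scale) of the 1092 members in the 3 day 3 and 4 day 6 libraries; boxes are quartiles with the median, whiskers the 5th and 95th percentiles. Library medians lie between 6.37 and 7.20 at day 3 and between 4.22 and 4.88 at day 6.

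The fit of day 6 against day 3 used the same KLF4 values that the lists' floors used on both days, so its calls and fitted changes are given as a description and no p-value is given for a member. edgeR with TMM factors, which set aside the shift shared by most pairs, called 39 of 1078 tested members, 16 higher and 23 lower at day 6, beside 5.33% of the 2571 pairs tested. Of all pairs 1.32% were higher and 4.01% lower. With contact totals the median of all pairs moved from 0.02 to −0.58 on the log2 scale, and 588 members were lower and 4 higher.

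Among the called members, the lowest day 6 values relative to day 3 were at Ptprm, a receptor tyrosine phosphatase gene on chromosome 17, and between Mthfd2l and Epgn, a ligand of the EGF receptor, on chromosome 5. The Ptprm member had 21.3, 16.6 and 13.1 CPM at day 3 and 3.62, 3.25, 5.26 and 2.73 CPM at day 6 (fitted log2 change −1.52). The Epgn member had 16.7, 14.7 and 10.4 CPM at day 3 and 4.11, 3.03, 2.56 and 3.50 CPM at day 6 (fitted log2 change −1.35). Neither was in the MEF or the ES H3K27ac list. In Gna14, which encodes a G protein subunit related to that of Gnaq, a member had 22.6, 22.7 and 14.7 CPM at day 3 and 4.55, 6.68, 7.94 and 4.81 CPM at day 6 (fitted log2 change −1.11). It had 9.42 and 12.9 CPM in ES H3K27ac and was not in the MEF list. A member ending at the start of Pipox, a peroxisomal oxidase gene, and 1 on chromosome 13 with no gene at its anchors made up the 5.

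The highest fitted change was in Sfi1 at the start of chromosome 11, where 5 members shared the bin chr11:3170001-3180000. The 40 kb member had 11.9, 17.6 and 16.2 CPM at day 3 and 22.4, 24.8, 24.7 and 23.1 CPM at day 6 (fitted log2 change 1.20). The strongest of all members joined this bin to its neighbour, with 115, 122 and 126 CPM at day 3 and 120, 136, 131 and 143 CPM at day 6. Hi-C signal there was far above that of the median member in both cell types, at 1823 in MEFs and 1272 in ES cells, against 49.2 and 49.7. What the high Hi-C signal contributes to these KLF4 values was not tested. Without these 5 members, 34 members were called, 11 higher and 23 lower. The other high fitted changes were between 9630028I04Rik and a bin 180 kb away on chromosome 17, with 3.83, 7.53 and 6.04 CPM at day 3 and 11.5, 7.09, 6.77 and 10.5 CPM at day 6 (fitted log2 change 1.10), between Pi4k2a and Marveld1 on chromosome 19, and at a place on chromosome 13 with no gene. The last 2 were not called with contact totals as scaling.

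Besides those in Sfi1 and Matr3, the 10 strongest members on a scale of the whole library included 1 at a gene-free place on chromosome 6, 1 in Tshz2 and 1 in Garem1. The chromosome 6 member had 17.4, 16.0 and 11.7 CPM at day 3, 3.66, 4.55, 5.36 and 4.76 CPM at day 6, and 5.53 and 8.58 CPM in MEF H3K27ac. The member in Garem1, an adaptor of EGF receptor signalling, had 20.9, 15.9 and 19.4 CPM at day 3, 9.80, 12.1, 9.98 and 9.95 CPM at day 6, and 16.5 and 15.6 CPM in MEF H3K27ac. These 3 members were in the MEF and not in the ES H3K27ac list.

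The Hi-C comparison of MEFs with ES cells called 1 of 520 tested members, beside 0.0322% of 124204 pairs (0.0209% higher and 0.0113% lower in ES cells). This member joined Ablim1, an actin-binding protein gene, to a bin 160 kb away on chromosome 19, with a signal of 59.4 and 59.5 in MEFs and 27.4 and 22.8 in ES cells (log2 change −1.23 ± 0.27 SE, edgeR adjusted p = 0.0435). DESeq2 called 0 members, and edgeR called 0 when either MEF library was left out. At an unadjusted p under 0.05 edgeR had 47 of the 520 members (9.04%), beside 6.07% of all pairs, and DESeq2 had 6. The Hi-C libraries had 5576165 to 10015967 listed contacts, which limits what could be detected.

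At the inner edge of the rule, the weakest members at day 6 included 1 between Jak2 and Plgrkt and 1 at Slc3a2, both on chromosome 19. The Jak2 member had 3.64, 3.56, 1.13 and 1.03 CPM at day 6 and the Slc3a2 member 3.64, 3.12, 1.13 and 1.72 CPM. Just outside the rule, the pairs of all 3 lists that were weakest in ES cells also lay on chromosome 19. The Prdx3 pair had 3.61, 3.81, 1.55 and 1.16 CPM in the ES libraries, and the pair within Gbf1 had 3.61, 3.81, 4.12 and 1.93 CPM.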

How the data were processed

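KLF4 HiChIP at day 3, day 6 and in ES cells, H3K27ac HiChIP in MEFs, ES cells and TKO cells, and Hi-C in MEFs and ES cells were used as the authors' deposited lists of 10 kb bin pairs. Reads were aligned with Bowtie2 2.2.3 to mm10, per the submitters' processing notes; the contact caller is not given in the sources used here. Per the file headers, the deposited values are a raw count per library, a CPM, 1 p-value and an FDR per pair. The deposited CPM of HiChIP is the count scaled to the contacts of the same chromosome, as count over CPM showed. In Hi-C the deposited value so named is a signal scaled by constants of unstated origin. The values show that the authors kept HiChIP pairs with a p-value under 0.1 and a CPM above 3 in replicates 1 and 2. In the TKO lists the CPM was above 3 in all 3 replicates, while the KLF4 lists held lower values in later replicates. The members and gene lists were chosen with earlier results of these data known.

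Members were found by matching both bins. Counts were tested with edgeR 4.0.16 (quasi-likelihood, TMM, filterByExpr, Benjamini-Hochberg adjustment, threshold 0.05) in R 4.3.3, over all pairs listed in both groups: KLF4 day 3 against day 6, H3K27ac MEF against ES and Hi-C MEF against ES. The SE is the log2 change over the root of the F statistic. The fits were tested on simulated data, drawn with the same dispersion for all pairs and no shift shared by most pairs. Of 200 pairs changed 2-fold, 86.5% were called in the KLF4 fit, 71.5% in the H3K27ac fit and 34% in the Hi-C fit. False calls numbered 11, 4 and 7 in that order. DESeq2 1.42.0, other scalings, no filter, replicate block, left-out libraries, other distances and shorter lists were tried as alternatives. Leaving out the Sfi1 members was chosen after seeing the data. Gene starts are those of the RefSeq promoter table and gene bodies those of the RefSeq gene table, both GRCm38.p6. Members named are the 10 strongest, the 5 strongest in each single-cell-type H3K27ac class, the 5 largest called changes per direction, the 5 most used bins, the 5 longest, the 3 at each edge of the rule and those at fixed-list genes. Some of the members this rule names are not reported here. Of the 6 promoters that the naming rule allows, only windows outside all gene bodies are shown, and Col6a1 and Klf9 were added after their values were seen, as were the stretches. HiChIP depth was 48664847 to 180568707 contacts per library. The Wilson intervals were computed from counts of bin pairs and cover counting error only.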

Additional observations from a re-analysis of the deposited data

Results flagged for a closer look

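Among 61 named members, 5 had 1 of the 4 day 6 libraries far from the other 3, by Dixon's test on the gap over the range at the 5% level; chance gives about 1 in 20. In Tshz2, replicate 2 was low at 3.92 CPM, with the others at 5.66 to 5.90. In Garem1, replicate 2 was high at 12.1 CPM, with the others at 9.80 to 9.98. At Fosl1, replicate 1 was high at 7.28 CPM, with the others at 4.01 to 4.53. Between Myh9 and Txn2, replicate 3 was low at 1.57 CPM, with the others at 3.41 to 3.53. At Pipox, replicate 3 was high at 4.99 CPM, with the others at 3.20 to 3.50.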

How the results depend on the processing

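The number of members was 1660 with 1 bin of tolerance, 535 with deposited p-values under 0.05 on both days, 604 without adjacent bins and 694 with lists of equal length, against 1092. The MEF H3K27ac share became 68.3%, 52.5% and 63.7% with tolerance, the stricter p-value and equal lengths. The ES H3K27ac share became 37.6% without adjacent bins and 50.1% with equal lengths. It stayed below the MEF share under all 5 alternatives tried. The MEF Hi-C share became 86.0%, 68.6%, 66.2% and 67.4%, and the ES Hi-C share 81.6%, 65.4%, 66.0% and 65.0%, with tolerance, the stricter p-value, no chromosome 19 and equal lengths. An ES KLF4 pair lay within 2 bins of 48.2% of members, and within 1 bin of 34.9% of those with no adjacent bins. Between day 3 and day 6, DESeq2 called 17 members, contact totals 592, chromosome totals 584 and the fit with the replicate block 22, against 39; leaving out 1 library gave 19 to 36, the lowest without day 6 replicate 4 (19) and day 3 replicate 2 (21). For H3K27ac, DESeq2 called 26 members (7 higher, 19 lower) against 78, and leaving out 1 library gave 43 to 65, the lowest without MEF replicate 2. Chromosome totals gave 36 higher and 31 lower. For Hi-C, DESeq2 and no filter on low counts gave 0 calls, and leaving out 1 library gave 0 to 3. The cause of these shifts was not tested. Whether the replicate numbers pair the samples could not be decided, since counting noise can hide a pairing at these contact counts. Deviations from the group means correlated at 0.01, 0.01 and 0.02 between same-numbered libraries in KLF4. Other-numbered KLF4 libraries ran from −0.06 to 0.06. Same-numbered libraries correlated at 0.03 in H3K27ac and 0.0012 in Hi-C. The block gave 82 H3K27ac calls and 1 Hi-C call. The median log2 ratio of day 6 over day 3 kept its sign under each alternative tried. Of the log2 changes of single named members under alternatives, 204 kept their direction and call and 21 kept their direction and lost the call, including the Ablim1 Hi-C change with DESeq2. With the 4 day 6 libraries summed to 1 sample, 30 members were called, 12 higher and 18 lower; no library was summed in the fits reported, so the alternative of keeping them separate was not run. At medians of 11 to 50 contacts per library, small changes were not detectable at this depth.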

Other observations

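A pair of further stretches on chromosome 19 held 7 or more members. At Afap1l2, an actin filament associated protein gene, 9 members lay in chr19:56910001-57040000, of which 3 were in the MEF and 0 in the ES H3K27ac list. KLF4 pairs in that stretch numbered 22 at day 3, 17 at day 6 and 9 in ES cells. At Entpd1, which encodes an enzyme that breaks down extracellular ATP, 7 members lay in chr19:40610001-40720000, again with 3 in the MEF and 0 in the ES H3K27ac list. There KLF4 pairs numbered 20 at day 3, 7 at day 6 and 0 in ES cells, and H3K27ac pairs 18 in MEFs and 2 in ES cells. A stretch of 6 members on chromosome 18, between 62790001 and 62890000, had 21 KLF4 pairs at day 3, 7 at day 6 and 1 in ES cells and no H3K27ac pair in either cell type.

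Of all members, 101 (9.25%) were in none of the 6 H3K27ac and Hi-C lists and 96 (8.79%) were in all 6. Among pairs in all 3 KLF4 lists these shares were 1.20% and 35.7%. Of the KLF4 pairs listed on both days, the share missing in ES cells ran from 28.6% on chromosome 3 to 55.6% on chromosome 9.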
